A study of Mus musculus with 24 samples.

Results

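The 10 genes described here encode apelin and its receptor, the vascular endothelial growth factor (VEGF) ligands Vegfa and Pgf with their receptors Kdr and Flt1, the angiopoietins Angpt1 and Angpt2 with their receptor Tek, and Esm1, which endothelial cells make in response to VEGF. They are 10 of the 25941 genes in the deposited count table, found by gene symbol. Each symbol belonged to 1 row, and all 10 were among the 14528 genes that passed the expression filter. The list was chosen by pathway name after the read counts of these genes in the 3 diet groups, and their differences against control, were known, so those differences are given as a description with standard errors and without p-values. The choice did not use the variation among mice on the same diet or the other genes of these pathways, and both were tested. The lists of those other genes were, however, drawn up with earlier results of these data known.

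The tissue was thoracic aorta from male wildtype C57BL/6 mice of 10 to 12 weeks. The controls (n = 8) ate chow with no drug for 3 weeks, the celecoxib group (n = 8) ate chow that supplied 100 mg/kg/day of this drug, and the rofecoxib group (n = 8) ate chow that supplied 50 mg/kg/day of that drug. Both drugs selectively inhibit cyclooxygenase-2. Every mouse, controls included, was given interleukin-1β at 10 ug/kg by intraperitoneal injection and its aorta was collected 4 h later at zeitgeber time 11, so all levels belong to an acutely inflamed state and no aorta without interleukin-1β was compared. Library totals lay between 21668798 and 21700121 reads.

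Apelin is a secreted peptide that acts on a G protein-coupled receptor encoded by Aplnr, which endothelial cells carry, and this pair takes part in vessel growth and in relaxation of the arterial wall. VEGF-A signals to endothelial cells chiefly through the receptor tyrosine kinase VEGFR2, encoded by Kdr, while VEGFR1, encoded by Flt1, binds VEGF-A tightly, is also made as a soluble form and acts largely as a trap. Placental growth factor, encoded by Pgf, binds VEGFR1 and not VEGFR2. Angiopoietin-1 activates the endothelial receptor TIE2, encoded by Tek, and keeps resting vessels stable, whereas angiopoietin-2 opposes it in many settings.

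On mm9, the build named in the submitters' processing notes, the table places Apln (ENSMUSG00000037010) at chrX:45378121-45388232, Aplnr (ENSMUSG00000044338) at chr2:84976315-84980281 and Kdr (ENSMUSG00000062960) at chr5:76328650-76374685. Flt1 (ENSMUSG00000029648) is at chr5:148372978-148537789, Vegfa (ENSMUSG00000023951) at chr17:46153740-46169528 and Pgf (ENSMUSG00000004791) at chr12:86507387-86518448. Tek (ENSMUSG00000006386) is at chr4:94405778-94541869, Angpt1 (ENSMUSG00000022309) at chr15:42256071-42508725, Angpt2 (ENSMUSG00000031465) at chr8:18690061-18741764 and Esm1 (ENSMUSG00000042379) at chr13:113999665-114008508. Each value is a count over the whole gene.

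Promoter sequence was available for 7 of the 10 genes, and the 250 bases before the start are shown for 4 genes that were higher in the rofecoxib group, 1 peptide ligand, 1 growth factor and 2 receptors. They come from RefSeq on GRCm38.p6, a later build than that of the counts, and each is written 5′ to 3′ on the strand of its gene. Capitals mark ACGTG or GCGTG, core letters bound by hypoxia-inducible factors, and AGGAA, core letters of ETS factors that act in endothelial genes. Both strands were searched, so a motif on the opposite strand is capitalised as its complement, as where AGGAA reads TTCCT. Apln is at chrX:48034854-48035103 (minus strand), Kdr at chr5:75978456-75978705 (minus strand), Vegfa at chr17:46032378-46032627 (minus strand, the first of 2 listed starts) and Tek at chr4:94739039-94739288 (plus strand).
Apln: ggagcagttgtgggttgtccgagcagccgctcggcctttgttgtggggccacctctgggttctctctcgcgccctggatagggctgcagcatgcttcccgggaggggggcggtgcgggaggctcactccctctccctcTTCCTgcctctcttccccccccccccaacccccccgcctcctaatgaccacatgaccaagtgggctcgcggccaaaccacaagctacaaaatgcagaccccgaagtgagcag
Kdr: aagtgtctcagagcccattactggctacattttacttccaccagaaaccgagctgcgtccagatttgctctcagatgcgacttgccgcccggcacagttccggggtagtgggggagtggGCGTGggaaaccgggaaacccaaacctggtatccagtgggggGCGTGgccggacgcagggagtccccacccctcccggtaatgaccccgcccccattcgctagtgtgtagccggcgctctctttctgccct
Vegfa: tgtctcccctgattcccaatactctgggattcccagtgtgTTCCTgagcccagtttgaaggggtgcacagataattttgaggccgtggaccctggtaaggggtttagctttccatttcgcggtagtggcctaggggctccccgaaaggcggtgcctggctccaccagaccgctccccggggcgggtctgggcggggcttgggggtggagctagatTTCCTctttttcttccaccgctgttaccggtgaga
Tek: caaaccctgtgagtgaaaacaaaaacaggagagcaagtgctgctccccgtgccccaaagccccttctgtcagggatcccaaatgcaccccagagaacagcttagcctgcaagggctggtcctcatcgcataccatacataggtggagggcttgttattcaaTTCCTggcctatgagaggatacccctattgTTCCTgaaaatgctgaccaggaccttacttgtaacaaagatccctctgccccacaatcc
Kdr held GCGTG at 2 places and no AGGAA, Apln held AGGAA at 1 place, and Vegfa and Tek each held AGGAA at 2 places. Over the first listed starts, 4 of the 7 genes held ACGTG or GCGTG (Kdr, Flt1, Pgf and Esm1) and 5 of 7 held AGGAA. Among 32851 RefSeq mouse promoters of the same length, 38.6% held ACGTG or GCGTG and 60.3% held AGGAA, so these short words are common and their matches are a description of the window only.

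Levels are given as CPM (reads of a gene as a share of the library total, scaled to a common total) after scaling of the libraries by the trimmed mean of M-values. To set the genes beside each other, CPM was divided by the length of each gene's merged exons in kilobases. On that per-length scale, the control medians ran in the order Angpt2 (42.1 CPM per kb), Vegfa (15.3), Pgf (9.90), Flt1 (6.98), Tek (4.62), Esm1 (1.84), Kdr (1.42), Aplnr (0.622), Angpt1 (0.442) and Apln (0.128). The control ranges of Angpt2 and Vegfa, of Flt1 and Tek, and of Tek and Esm1 did not overlap. The ranges of the other neighbours in that order overlapped. Tested genes with a known length were also ranked by their mean per-length level over all 24 libraries. The percentile was 92.7 for Angpt2 and 9.63 for Apln, so the angiopoietin-2 transcript was abundant and the apelin transcript scarce in these aortas. In control libraries Apln rested on 3 to 20 reads.

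In the rofecoxib group apelin and its receptor were higher than in controls, and so were VEGFR2, VEGF-A and TIE2. Flt1 and Angpt2 had means close to control. Angpt1 and Esm1 had higher means, with 95% intervals of the log2 fold change that spanned 0. Pgf had a lower mean, with an interval below 0 that ended close to it. Differences below are log2 fold changes from edgeR's quasi-likelihood fit, and a gene is called where the Benjamini-Hochberg adjusted p over all tested genes is under 0.05. With rofecoxib 5 of the 10 genes were called higher and 0 lower, where 6.94% of all tested genes were called in that comparison, 3.88% higher and 3.06% lower; this count is a description, because the list was drawn up with the comparison known. The median log2 fold change of the 10 genes was 0.46, against 0.02 over all tested genes. For none of the 10 did all 8 rofecoxib libraries lie on 1 side of the control range, a separation that 0.785% of tested genes showed (0.275% higher, 0.509% lower). With celecoxib 0 of the 10 were separated from control in this way, against 0.234% of tested genes, and 0 were separated between the drugs, against 0.0551%.

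**Figure D1:**
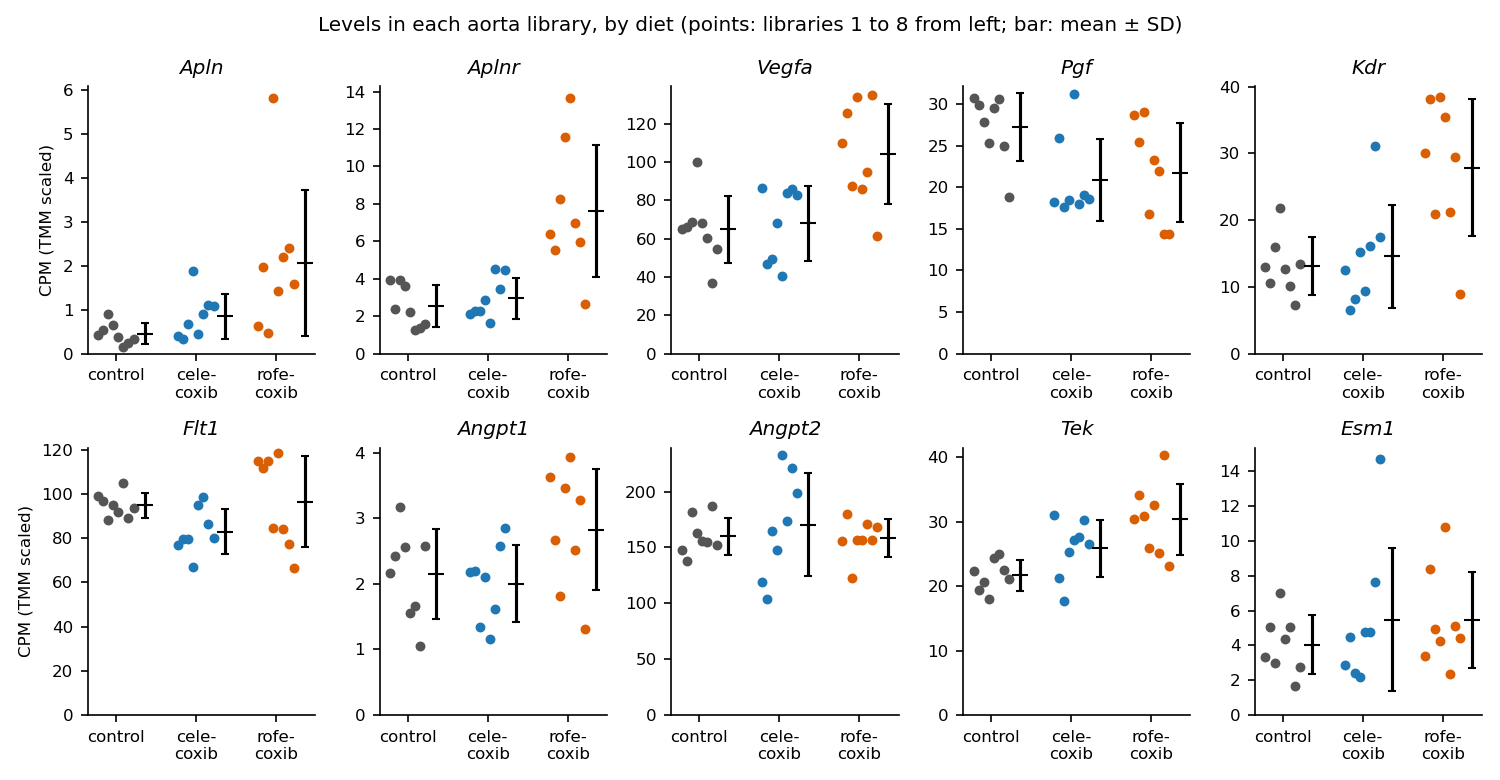
Level of each of the 10 genes in every library (CPM after TMM scaling, axis from 0), with 1 point per library in the order of replicates 1 to 8 and a bar for the group mean ± SD. Apln, Aplnr, Kdr, Vegfa and Tek have higher rofecoxib means than control means, while the control and rofecoxib means of Flt1 (94.9 and 96.6) and Angpt2 (160 and 159) lie close together.

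Apelin had the widest spread of the 10 genes among rofecoxib libraries, with a coefficient of variation of 80.7%. Apln in controls was 0.146 CPM at the lowest, 0.402 at the median and 0.895 at the highest. With celecoxib it was 0.341 at the lowest, 0.784 at the median and 1.88 at the highest. With rofecoxib it was 0.464 at the lowest, 1.78 at the median and 5.80 at the highest. Of the rofecoxib libraries 6 of 8 lay above every control, and of the celecoxib libraries 4 of 8. The log2 fold change of Apln was 2.18 with rofecoxib (SE 0.45, 95% interval 1.248 to 3.11) and 0.92 with celecoxib (SE 0.47, interval -0.05 to 1.88). The rofecoxib value rested in part on replicate 4, with 5.80 CPM, and was 1.75 without it.

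The apelin receptor gene was less variable, with a coefficient of variation of 46.2% in the rofecoxib group. Aplnr lay between 1.27 and 3.94 CPM in controls, with a median of 2.30. It lay between 1.65 and 4.499 CPM with celecoxib, median 2.59, which is within or close to the control range. With rofecoxib it lay between 2.62 and 13.7 CPM, median 6.69, and 7 of 8 libraries were above every control. The log2 fold change of Aplnr was 1.59 with rofecoxib (SE 0.30, interval 0.96 to 2.21) and 0.22 with celecoxib (SE 0.31, interval -0.41 to 0.85). Per kb of exon, receptor exceeded ligand in every library, with a median ratio of Aplnr to Apln of 4.84 in controls, 3.38 with celecoxib and 2.55 with rofecoxib, but the 3 ranges overlapped (3.75 to 7.85, 1.31 to 5.72 and 1.40 to 15.2).

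Among the VEGF ligands, Vegfa encodes the main growth factor for endothelial cells. Vegfa was 37.1 CPM at the lowest, 65.7 at the median and 99.8 at the highest in controls. The celecoxib libraries covered nearly the same span, from 40.3 to 86.5 CPM with a median of 75.3. The rofecoxib libraries ran from 61.2 to 135 CPM with a median of 102, and 4 of 8 were above every control. The log2 fold change of Vegfa was 0.68 with rofecoxib (SE 0.19, interval 0.29 to 1.08) and 0.06 with celecoxib (SE 0.19, interval -0.33 to 0.46).

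Placental growth factor had a lower mean than control in both drug groups. Pgf was 27.3 ± 4.10 CPM in controls, 20.9 ± 4.97 with celecoxib and 21.8 ± 6.01 with rofecoxib (mean ± SD, n = 8 each). The control median was 28.8 CPM, and 5 of 8 celecoxib libraries and 3 of 8 rofecoxib libraries lay below every control. The log2 fold changes were -0.38 with celecoxib (SE 0.16, interval -0.70 to -0.06) and -0.32 with rofecoxib (SE 0.15, interval -0.64 to -0.004). Both intervals lay below 0, but neither value reached a call. Per kb, the ratio of Vegfa to Pgf had a median of 1.53 in controls (range 1.01 to 2.67), 2.75 with celecoxib (0.873 to 3.20) and 2.90 with rofecoxib (2.04 to 6.36).

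The signalling receptor and the trap receptor for VEGF-A had different profiles. Kdr was 7.29 to 21.8 CPM in controls with a median of 12.8, and 6.57 to 31.1 CPM with celecoxib with a median of 13.8. With rofecoxib it was 8.94 to 38.5 CPM with a median of 29.7, and 5 of 8 libraries lay above every control. The log2 fold change of Kdr was 1.09 with rofecoxib (SE 0.29, interval 0.49 to 1.69) and 0.16 with celecoxib (SE 0.29, interval -0.44 to 0.76).

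Flt1 was the steadiest of the 10 genes among controls, with a coefficient of variation of 5.85%, between 88.3 and 105 CPM. With rofecoxib it spread from 66.6 to 118.5 CPM, with 4 libraries above every control and 4 below every control. The group mean hardly moved, with a log2 fold change of 0.03 (SE 0.10, interval -0.19 to 0.24). With celecoxib 6 of 8 libraries lay below every control, from 66.9 to 98.9 CPM, and the log2 fold change was -0.19 (SE 0.10, interval -0.40 to 0.02). The ratio of Kdr to Flt1 per kb had a median of 0.201 in controls (range 0.123 to 0.342), 0.243 with celecoxib (0.124 to 0.537) and 0.418 with rofecoxib (0.201 to 0.680), so VEGFR1 remained the more abundant transcript in every library. The deposited gene counts do not separate full-length from soluble VEGFR1.

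The angiopoietin receptor differed by less than Kdr, and with less spread. Tek was 17.96 to 24.9 CPM in controls (median 21.8), 17.7 to 31.1 CPM with celecoxib (median 26.9) and 23.2 to 40.4 CPM with rofecoxib (median 30.6). Of the rofecoxib libraries 7 of 8 lay above every control, and of the celecoxib libraries 6 of 8. The log2 fold change of Tek was 0.49 with rofecoxib (SE 0.11, interval 0.26 to 0.72) and 0.26 with celecoxib (SE 0.11, interval 0.03 to 0.49), of which only the first was called.

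Neither ligand of TIE2 was called with either drug. Angpt1 was 2.15 ± 0.685 CPM in controls, 2.001 ± 0.588 with celecoxib and 2.83 ± 0.920 with rofecoxib, and its log2 fold changes were -0.10 (SE 0.24) and 0.40 (SE 0.23). Angpt2 was 160 ± 16.7 CPM in controls, 170 ± 46.1 with celecoxib and 159 ± 16.9 with rofecoxib, with log2 fold changes of 0.09 (SE 0.13, interval -0.17 to 0.35) and -0.01 (SE 0.13, interval -0.27 to 0.25). The celecoxib group had the widest spread of Angpt2, with 3 libraries above and 2 below every control. Angpt2 exceeded Angpt1 per kb in every library, by a median factor of 93.0 in controls, 110 with celecoxib and 81.3 with rofecoxib.

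Esm1 encodes endocan, a proteoglycan secreted by endothelial cells and raised by VEGF in cultured cells. Esm1 was 4.04 ± 1.69 CPM in controls, 5.48 ± 4.12 with celecoxib and 5.47 ± 2.78 with rofecoxib. Its log2 fold change was 0.44 with each drug (SE 0.37 for both), within the spread of the libraries, and the celecoxib value was 0.05 without replicate 8.

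**Figure D2:**
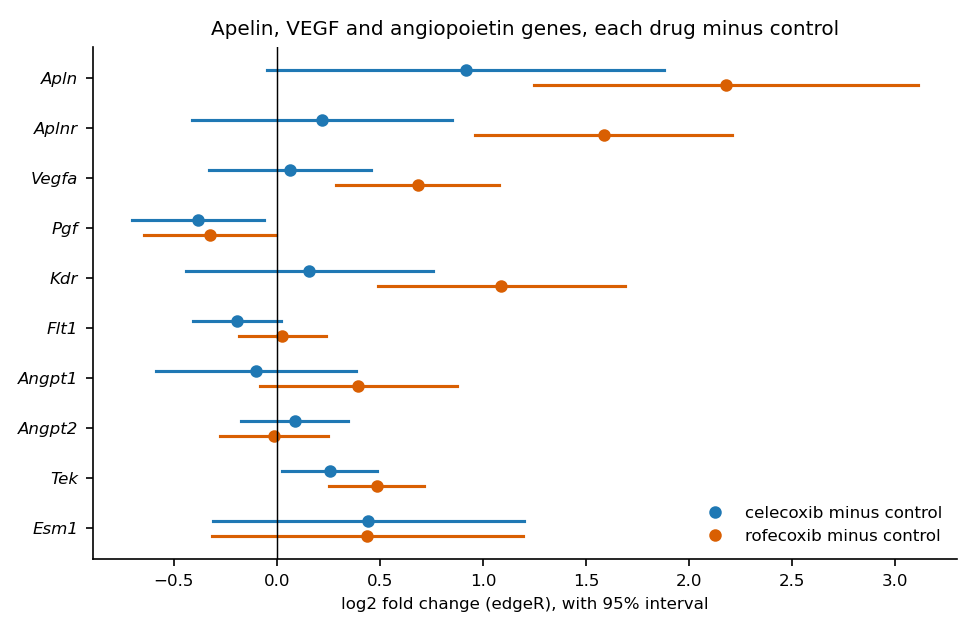
Log2 fold change of each gene against control for celecoxib and for rofecoxib, from edgeR's quasi-likelihood fit, with bars for the 95% interval. The rofecoxib intervals of Apln, Aplnr, Kdr, Vegfa and Tek lie above 0, from 0.26 upwards, and those of Flt1, Angpt1, Angpt2 and Esm1 span 0. Both intervals of Pgf lie below 0, ending at -0.06 with celecoxib and -0.004 with rofecoxib, and Pgf was not called.

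With celecoxib 0 of the 10 genes were called, where 0.0344% of all tested genes were (0.00688% higher and 0.0275% lower); at an unadjusted p under 0.05 there were 2 of 10 (13.6% of all tested genes), and DESeq2 also called 0. The comparisons of the drugs with control share the same 8 control libraries. The drugs were given at different doses, 100 and 50 mg/kg/day, so a difference between the drug groups is one between these feeding regimens. In the direct difference celecoxib minus rofecoxib, Aplnr alone among the 10 genes was called, lower with celecoxib, with a log2 fold change of -1.37 (SE 0.30, interval -1.98 to -0.75); 4.89% of all tested genes were called, 4.32% lower and 0.564% higher. The differences of Apln (-1.26, SE 0.42), Kdr (-0.93, SE 0.29), Vegfa (-0.62, SE 0.19) and Angpt1 (-0.50, SE 0.23) were not called, and their intervals lay below 0. Flt1 (-0.22, SE 0.10) and Tek (-0.23, SE 0.11) had intervals that ended close to 0. The intervals of Pgf (-0.38 to 0.26), Angpt2 (-0.16 to 0.36) and Esm1 (-0.74 to 0.75) spanned 0. DESeq2 called 4 of the 10 genes lower in this comparison, and the edgeR count was 0 when any of 8 libraries was left out (celecoxib replicates 2 to 5 and rofecoxib replicates 2, 3, 4 and 7).

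Some libraries stood at the edge of their group for several of these genes. Rofecoxib replicate 8 was the lowest of its group for 6 of the 10 genes (Aplnr, Kdr, Flt1, Vegfa, Tek and Angpt1), and rofecoxib replicate 5 was the highest for 4 (Aplnr, Flt1, Angpt1 and Esm1). Control replicate 7 was the lowest of its group for Kdr, Vegfa, Angpt1 and Esm1. Without rofecoxib replicate 8 the log2 fold changes against control were 2.22 for Apln, 1.71 for Aplnr, 1.22 for Kdr, 0.76 for Vegfa and 0.53 for Tek, and the same number, 5 of 10, were called higher. When each library was left out in turn, Apln, Aplnr and Tek were called in 24 of 24 fits, Kdr in 17 of 24 and Vegfa in 15 of 24. Kdr and Vegfa both lost the call without rofecoxib replicates 2, 4 or 7 or control replicates 1, 2, 6 or 7, which left 3 genes called, and Vegfa lost it also without control replicates 5 or 8.

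The other genes of these pathways were counted over lists drawn from textbook pathway membership, with earlier results of these data known. They held 65 symbols, of which 64 were in the table and tested. With rofecoxib 5 of 64 (7.81%) rose and 0 fell by edgeR's quasi-likelihood test. Of all tested genes 6.94% were called, 3.88% higher and 3.06% lower. When each library was left out in turn, the edgeR count for the 64 genes lay between 1 and 12. DESeq2 called 8 of the 64 higher and 4 lower. Of the 64 log2 fold changes 41 were above 0 (54.9% of all tested genes were), with a median of 0.10. With celecoxib 0 of 64 were called by edgeR and 0 by DESeq2, with 7 at an unadjusted p under 0.05 and a median log2 fold change of -0.06. In celecoxib minus rofecoxib 4 of 64 (6.25%) were lower with celecoxib and 0 higher by edgeR, near the 4.32% lower and 0.564% higher of all tested genes, with a median of -0.15. DESeq2 called 8 lower and 1 higher in this comparison.

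In the VEGF list, which held 6 further ligands and receptors, Nrp2 was the gene that changed. It encodes neuropilin-2, a co-receptor for VEGF-C and semaphorins. Nrp2 was 26.0 ± 3.57 CPM in controls, 25.6 ± 5.76 with celecoxib and 41.3 ± 10.6 with rofecoxib (n = 8 each), and 7 of 8 rofecoxib libraries lay above every control. The log2 fold change was 0.67 with rofecoxib (SE 0.15, edgeR adjusted p = 0.0136) and it was called in 24 of 24 fits that each left out 1 library. In celecoxib minus rofecoxib it was -0.69 (SE 0.15, adjusted p = 0.0369), called in 16 of 24 such fits and lost without celecoxib replicates 2 to 5 or rofecoxib replicates 2, 3, 4 or 7. With celecoxib against control, the smallest p-values of this list belonged to Vegfb, a VEGFR1 ligand (-0.19, SE 0.13, adjusted p = 0.517), and Flt4, the lymphatic VEGF receptor (0.13, SE 0.24, adjusted p = 0.832).

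In the angiopoietin list of 6 genes, Dok2, an adaptor that docks on activated TIE2, rose with rofecoxib from 5.04 ± 0.98 CPM in controls to 7.53 ± 2.06, a log2 difference of 0.58 with an SE of 0.15 and an edgeR adjusted p of 0.0283. It lost the call without rofecoxib replicate 7 or control replicates 2, 6 or 7. Dok2 was lower with celecoxib than with rofecoxib (-0.69, SE 0.15, adjusted p = 0.0369), and lost that call without the same 8 libraries as Nrp2. The list's median log2 fold change with rofecoxib was 0.34, and DESeq2 called 1 of its genes higher and 1 lower in that comparison with control. With celecoxib against control, Angpt4, another TIE2 ligand (-0.58, SE 0.23, adjusted p = 0.268), and Ptprb, the phosphatase that damps TIE2 (0.17, SE 0.14, adjusted p = 0.588), were not called.

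In the apelin list of 8 tested genes, with G proteins, arrestins and peptidases, 0 were called with either drug against control by edgeR, with 2 at an unadjusted p under 0.05 for each drug, while DESeq2 called 1 lower with rofecoxib and 0 with celecoxib. The smallest p-values belonged to Gnai2, an inhibitory G protein subunit (-0.14, SE 0.05, adjusted p = 0.0748 with rofecoxib; -0.11, SE 0.05, adjusted p = 0.337 with celecoxib), and Arrb1, which encodes β-arrestin 1 (0.16, SE 0.07, adjusted p = 0.140 with rofecoxib; 0.17, SE 0.07, adjusted p = 0.287 with celecoxib). Mme, which encodes neprilysin, a peptidase that cleaves apelin, was lower with celecoxib than with rofecoxib (-0.89, SE 0.25, adjusted p = 0.0423), a call lost without the 8 libraries named for Nrp2, rofecoxib replicate 1 or control replicates 1, 2, 5 or 6.

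Of 10 genes that VEGF induces in endothelial cells, Hhex, a homeobox transcription factor, rose with rofecoxib (log2 fold change 0.63, SE 0.16, edgeR adjusted p = 0.0256), from 3.84 ± 0.58 to 5.94 ± 1.36 CPM, and lost the call without rofecoxib replicate 2 or control replicates 2 or 7. It was the only 1 of the 10 called by edgeR with rofecoxib. In that list 5 log2 fold changes were above 0 and 5 below, the median was -0.002 and 2 had an unadjusted p under 0.05. Of 13 genes of tip cells and sprouting, 0 were called against control with rofecoxib by edgeR, and DESeq2 called 2 higher and 1 lower; 10 log2 fold changes were above 0, the median was 0.32 and 7 had an unadjusted p under 0.05, where 54.9% of all tested genes were above 0 and 28.2% had such a p. The nearest were Nrarp, a Notch feedback inhibitor (0.60, SE 0.19, adjusted p = 0.0541), and Reck, a membrane-anchored protease inhibitor (-0.20, SE 0.06, adjusted p = 0.0572). Nid2, the basement membrane protein nidogen-2, was lower with celecoxib than with rofecoxib (-0.61, SE 0.15, adjusted p = 0.0372), and lost the call without the 8 libraries named for Nrp2 or rofecoxib replicate 1. Of 21 targets and parts of the hypoxia-inducible factor pathway, which drives Vegfa in low oxygen, Pgk1, a glycolytic kinase (0.35, SE 0.09, adjusted p = 0.0255), and Ndrg1 (0.36, SE 0.10, adjusted p = 0.0351) rose with rofecoxib, while the list's median log2 fold change was 0.02. In this list DESeq2 called 3 genes higher and 1 lower with rofecoxib. Pgk1 lost its edgeR call without rofecoxib replicates 2, 4 or 7 or control replicates 1, 2 or 7. Ndrg1 lost it without rofecoxib replicates 2, 4, 5 or 7 or control replicates 2, 6, 7 or 8.

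Marker levels of several cell types moved with these genes. In bulk tissue, fewer cells of a type and less RNA per cell cannot be told apart. The counts below stand beside these shares of all tested genes. With rofecoxib against control 3.88% were called higher and 3.06% lower by edgeR. In that comparison 54.9% had a log2 fold change above 0 and 28.2% an unadjusted p under 0.05. In celecoxib minus rofecoxib 4.32% were called lower. Smooth muscle markers were abundant in every library, with a summed level of 28230 to 38250 CPM in controls. The 15 endothelial markers summed to 1036 to 1331 CPM in controls, 1000 to 1663 with celecoxib and 922.3 to 1687 with rofecoxib; with rofecoxib 14 of 15 had a log2 fold change above 0 and 3 were called higher (Egfl7, Sox18 and Clec14a). The 9 microvascular endothelial markers summed to 185.3 to 623.9 CPM in controls, 199.4 to 428.8 with celecoxib and 227.4 to 849.4 with rofecoxib, with 9 of 9 above 0 and 2 called higher (Cd36 and Aqp7, which adipocytes also make). The 12 general adipocyte markers summed to 2413 to 6941 CPM in controls, 2133 to 4517 with celecoxib and 2469 to 7834 with rofecoxib, with 11 of 12 above 0 and 3 called higher (Lep, Fabp4 and Pparg). The 8 brown adipocyte markers summed to 192 to 1199 CPM, 103.3 to 559.8 and 367.3 to 1858 in the same order, with 8 of 8 above 0 and 0 called by edgeR or by DESeq2, though 5 of 8 had an unadjusted p under 0.05. All 8 smooth muscle markers had a log2 fold change below 0 with rofecoxib, with 0 called by edgeR, 1 at an unadjusted p under 0.05 and 1 called lower by DESeq2. Of the other lists, 1 arterial endothelial marker (Bmx), 1 lymphatic marker (Pdpn) and 1 macrophage marker (Mrc1) were called higher with rofecoxib, and 2 fibroblast markers (Col1a1 and Col1a2) lower. Where celecoxib was compared with rofecoxib, 5 of 9 microvascular, 6 of 12 general adipocyte, 3 of 8 brown adipocyte, 4 of 8 macrophage and 6 of 6 tested neutrophil markers were called lower with celecoxib. None of these markers was at 0 in all libraries.

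Refitting with the summarised endothelial level as a covariate lowered the rofecoxib minus control log2 fold change of Kdr from 1.09 to 0.29 (SE 0.17), of Vegfa from 0.68 to 0.33 (SE 0.18), of Tek from 0.49 to 0.27 (SE 0.10) and of Aplnr from 1.59 to 1.06 (SE 0.29). Apln went from 2.18 to 1.91 (SE 0.49). With the general and brown adipocyte levels as covariates instead, the values were 0.38 (SE 0.22) for Kdr, 0.21 (SE 0.08) for Vegfa, 0.38 (SE 0.13) for Tek, 1.13 (SE 0.31) for Aplnr and 1.82 (SE 0.43) for Apln. In both fits Apln, Aplnr and Tek kept a larger share of their difference than Kdr and Vegfa did. The covariates themselves differed between rofecoxib and control. The difference in mean log2 CPM was 0.35 for the endothelial, 0.77 for the general adipocyte and 0.75 for the brown adipocyte level. These fits therefore cannot separate the marker levels from the diet. The number of the 10 genes called was 0 with the endothelial covariate and 1 with the adipocyte covariates, where the number called among all tested genes was 12 and 100.

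**Figure D3:**
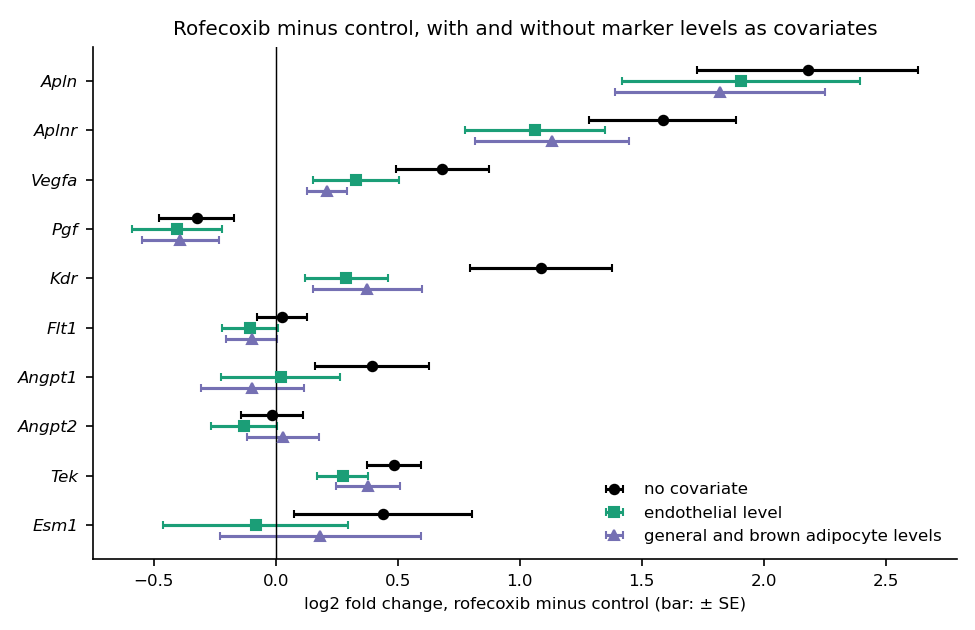
Rofecoxib minus control log2 fold change of each gene without a covariate, with the endothelial marker level as covariate and with the general and brown adipocyte levels as covariates, with bars of 1 standard error. Kdr drops from 1.09 to 0.29 and 0.38, while Apln stays between 1.82 and 2.18.

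Variation among mice on the same diet, a measure that the choice of list did not use, was tested next. Each library's log2 CPM was taken as its deviation from the mean of its diet group, and 45 pairs of the 10 genes and 50 relations of a gene to a marker level were tested over 24 libraries by permutation of libraries within groups (two-sided, 100000 resamples), with Benjamini-Hochberg adjustment over all 95. Of the 45 pairs 7 passed by Pearson's r, all with a positive correlation. Of these, 6 were all the pairs among Aplnr, Kdr, Vegfa and Angpt1, and the seventh was Flt1 with Pgf. How often pairs of other genes pass was not computed, so the count of 7 does not set these genes apart from others. The set of passing pairs changed with rank correlation. By Spearman's rho 10 pairs passed, of which 6 were among these 7: Aplnr with Vegfa did not pass, and Apln with Aplnr (rho = 0.54, permutation adjusted p = 0.04), Apln with Kdr (rho = 0.60, adjusted p = 0.025), Apln with Vegfa (rho = 0.56, adjusted p = 0.036) and Flt1 with Esm1 (rho = 0.54, adjusted p = 0.036) did. When the 2 libraries farthest from the median of the first gene were left out, 4 of the pairs passed (Kdr with Vegfa, Kdr with Angpt1, and Aplnr with Kdr and with Vegfa). Rofecoxib replicate 8 was 1 of the 2 farthest libraries for each of the 7 pairs. Among the 12 libraries of replicates 1 to 4 alone 0 of 45 pairs passed, and among those of replicates 5 to 8 alone 1 passed, although all 7 kept their sign in both.

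The closest pair was Kdr and Vegfa, the receptor and its ligand, with Pearson r = 0.82 (permutation adjusted p = 0.00016, from the smallest p that the resamples can give) and Spearman rho = 0.76. It was r = 0.80 without the 2 libraries farthest from the median, 0.88 among replicates 1 to 4 and 0.77 among replicates 5 to 8. Kdr and Angpt1 gave r = 0.72 (permutation adjusted p = 0.0015, rho = 0.73), and r = 0.62 (adjusted p = 0.036) without the 2 farthest libraries. Flt1 and Pgf gave r = 0.69 (permutation adjusted p = 0.015, rho = 0.63), with 0.63 (adjusted p = 0.065) without the 2 farthest libraries, 0.78 among replicates 1 to 4 and 0.58 among replicates 5 to 8. Vegfa and Angpt1 gave r = 0.67 (permutation adjusted p = 0.0058, rho = 0.56), and 0.48 (adjusted p = 0.14) without the 2 farthest libraries.

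Aplnr correlated with Kdr (r = 0.69, permutation adjusted p = 0.0028, rho = 0.68), with Angpt1 (r = 0.65, adjusted p = 0.0091, rho = 0.59) and with Vegfa (r = 0.59, adjusted p = 0.016; rho = 0.44, adjusted p = 0.11). Among replicates 1 to 4 these were only 0.29, 0.11 and 0.09, against 0.78, 0.72 and 0.61 among replicates 5 to 8, so the relations of Aplnr rested mainly on the latter 12 libraries. Apln and Aplnr, ligand and receptor, gave r = 0.46 (permutation adjusted p = 0.11), which did not pass, and rho = 0.54 (permutation adjusted p = 0.04), which did. Some other receptors and their ligands did not pass by r or rho. These were Tek with Angpt1 (r = 0.18, permutation adjusted p = 0.54), Tek with Angpt2 (r = 0.13, adjusted p = 0.74) and Flt1 with Vegfa (r = 0.09, adjusted p = 0.80). Kdr and Flt1 gave r = 0.34 (permutation adjusted p = 0.27, rho = 0.25), and r = 0.01 without the 2 farthest libraries.

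**Figure D4:**
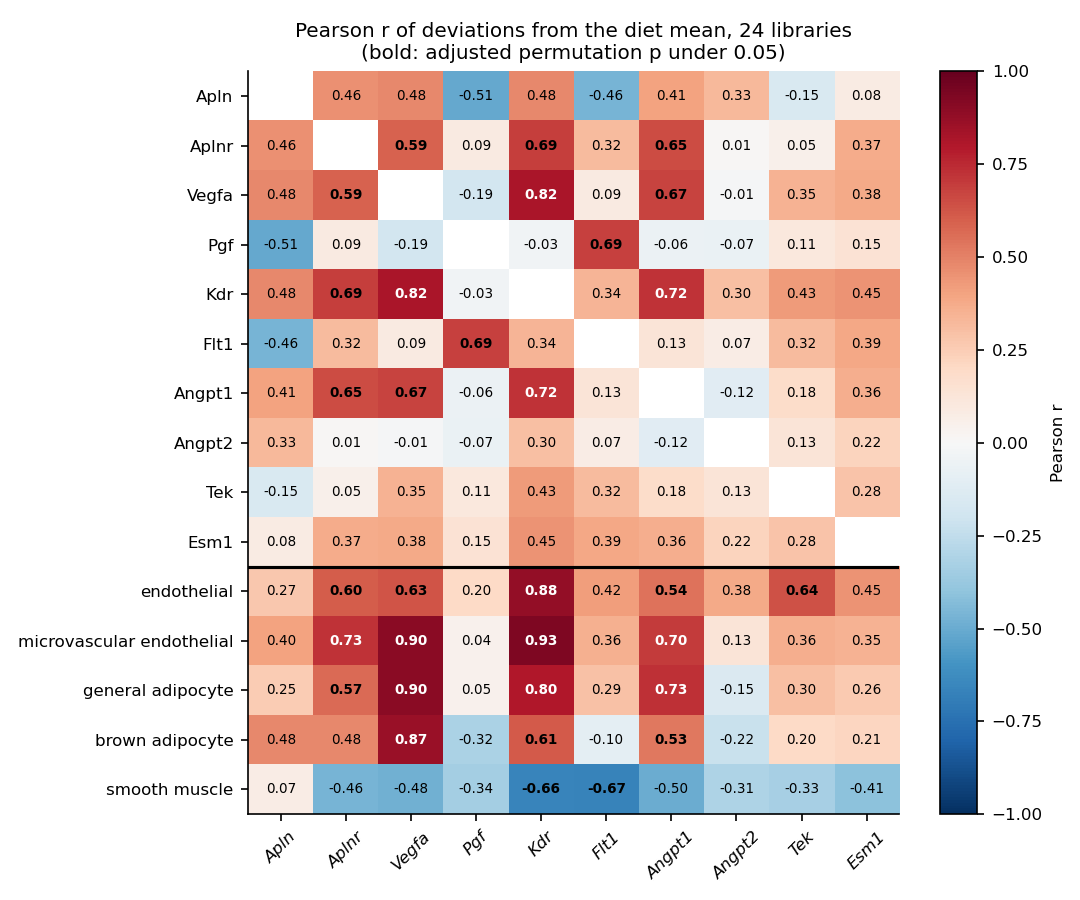
Pearson correlation of within-diet deviations of log2 CPM over 24 libraries, for each pair of the 10 genes and for each gene with 5 marker levels; colour and printed value both give r, and bold marks an adjusted permutation p under 0.05. The strongest pair of genes is Kdr with Vegfa (0.82), and the strongest relation to a marker level is Kdr with the microvascular level (0.93).

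Of the 50 relations to marker levels 18 passed by Pearson's r and 18 by Spearman's rho, with 16 in common. Of the former 18, 10 also passed without the 2 libraries farthest from the median of the marker level. Among replicates 1 to 4 alone 0 of these 18 passed, and among replicates 5 to 8 alone 4 did. None of the 10 genes counts towards these levels. How often other genes pass with these levels was not computed, so the count of 18 does not set the 10 genes apart. Kdr followed the microvascular endothelial level (r = 0.93, permutation adjusted p = 0.00016, rho = 0.89, and r = 0.88 without the 2 farthest libraries) and the endothelial level (r = 0.88, 0.75 without the 2 farthest). Vegfa followed the general adipocyte level (r = 0.90, rho = 0.89, 0.86 without the 2 farthest), the microvascular level (r = 0.90) and the brown adipocyte level (r = 0.87). Tek followed the endothelial level (r = 0.64, permutation adjusted p = 0.015, rho = 0.52), and without the 2 farthest libraries r was 0.52 and did not pass (adjusted p = 0.09). Flt1 ran against the smooth muscle level (r = -0.67, permutation adjusted p = 0.016), more weakly among replicates 1 to 4 (-0.36) than among replicates 5 to 8 (-0.76). Its r without the 2 farthest libraries was -0.50 and did not pass (adjusted p = 0.14). For Apln, Pgf, Angpt2 and Esm1 no relation to a marker level passed by Pearson's r, but by rho Apln passed with the brown adipocyte level (rho = 0.56, permutation adjusted p = 0.036) and Esm1 with the endothelial level (rho = 0.53, adjusted p = 0.04).

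**Figure D5:**
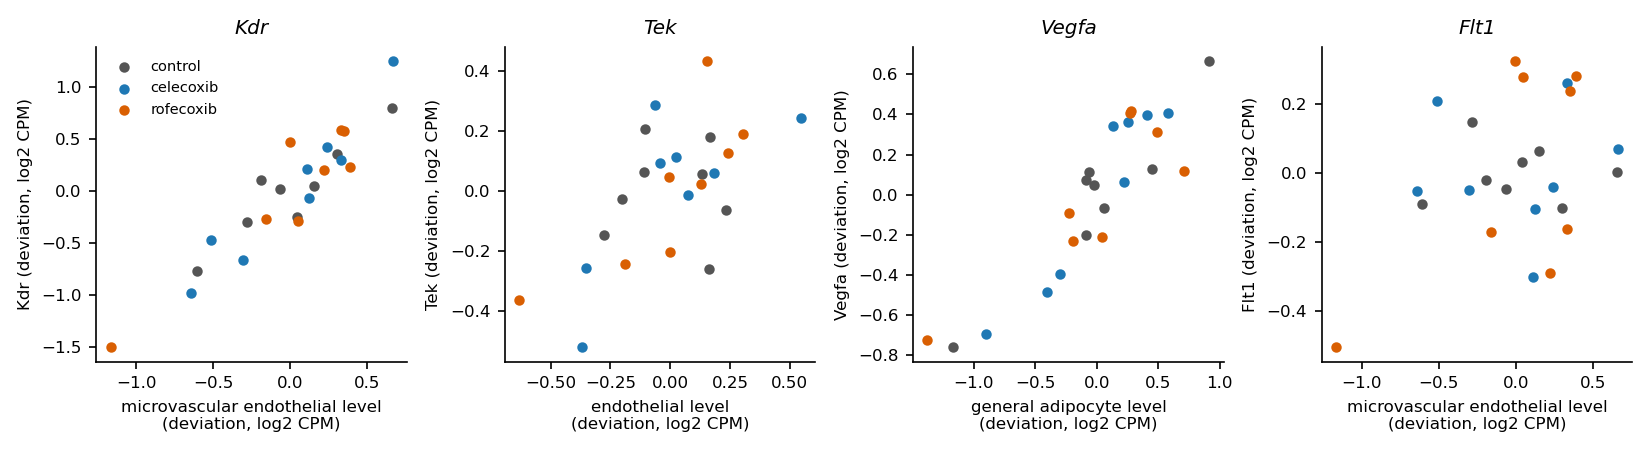
Deviation from the diet group mean (log2 CPM) of Kdr, Tek, Vegfa and Flt1 against the deviation of a marker level, with 1 point per library (24) and a colour per diet group. Kdr against the microvascular level (r = 0.93) and Vegfa against the general adipocyte level (r = 0.90) lie near a line, Tek against the endothelial level is looser (r = 0.64), and Flt1 against the microvascular level did not pass (r = 0.36).

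The genes with the most similar within-diet pattern were looked up among the 13148 genes that averaged 1 CPM or more, as a description over 24 libraries. For Kdr they were Arap3 (r = 0.94), Sh3tc1 (0.93), Kank3 (0.93) and Cyp4b1 (0.92). For Aplnr they were Fam101b (0.81), Btnl9 (0.79), Ushbp1 (0.78) and Zfp366 (0.78), and for Apln Dctn2 (0.84), Pdrg1 (0.83), Ncbp2 (0.82) and Zfp28 (0.82). These are the highest of 13148 correlations each, and those of the scarce Apln transcript rest on few reads.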

How the data were processed

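RNA of 24 thoracic aortas was sequenced after poly(A) selection; TruSeq library construction took 3 days, per the labels' protocols, which do not tie libraries to days. What was deposited is a single gene table of raw read counts made by the authors. The submitters' processing notes name CASAVA 1.8.1, STAR 2.5.1b and mm9. Neither the counting tool nor its annotation or strand setting is stated, so overlapping and antisense genes may share reads. Library totals spanned only 0.145% of the lowest, and any step that made them alike is not stated, so the original depth is unknown. Groups and replicate numbers are those of the labels, which describe biological replicates. No pair of libraries of the same diet group agreed within sampling noise.

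Counts were scaled by TMM, filtered by filterByExpr in edgeR 4.0.16 under R 4.3.3 (14528 genes kept; common coefficient of variation 19.6%) and tested by the two-sided quasi-likelihood test with 1 mean per diet group over all 24 libraries. Genes were called at a Benjamini-Hochberg adjusted p under 0.05. The genes and lists were chosen with earlier results of these data known. Named pathway genes are up to 4 called genes per list and comparison with the smallest p or, with none called, up to 2. Likeness lists hold the 4 highest correlations. Correlations used log2 CPM with a prior count of 2. A marker level is the mean log2 CPM of its tested markers that are neither among the 10 genes nor in a pathway list. Exon lengths came from GENCODE M21 on GRCm38, matched for 14144 of the 14528 genes by identifier. The fits were tested on simulated data.

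Alternatives were DESeq2 1.42.0, other scalings and filters, a replicate block, the compared groups alone, replicates 1 to 4 and 5 to 8 as a term or alone, marker covariates, and each library left out. Apela, a second ligand of the apelin receptor, was not analysed here.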

Additional observations from a re-analysis of the deposited data

Results flagged for a closer look

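In each diet group of each gene the extreme library was compared with its nearest neighbour by Dixon's gap rule. It stood apart in 4 of 30 groups. Chance sets apart about 1 in 20 for normally distributed values. The rule was applied to CPM without a log transform, which need not be normal, so the 2 rates are not directly comparable. Apln was 5.80 CPM in rofecoxib replicate 4, against 2.39 in the next highest library of its group. Kdr was 31.1 CPM in celecoxib replicate 7, against 17.5 in the next highest, and its celecoxib minus control log2 fold change was -0.10 without that library. Angpt2 was 122.9 CPM in rofecoxib replicate 3, against 156 in the next lowest library of that group. Esm1 was 14.7 CPM in celecoxib replicate 8, against 7.62 in the next highest.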

How the results depend on the processing

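Counts below are of genes called by celecoxib against control, by rofecoxib against control and by celecoxib against rofecoxib, in that order. They were 5, 1008 and 710 over all tested genes, 0, 5 and 4 among the 64 pathway genes, and 0, 5 and 1 among the 10 genes. DESeq2 gave 110, 1812 and 1419 over all genes, 0, 12 and 9 among pathway genes and 0, 5 and 4 among the 10. Without a filter on low counts they were 2, 557 and 0, with 0 pathway genes and 0 of the 10 in the last comparison. Fits on the 2 groups compared alone gave 45, 897 and 0, again with 0 pathway genes and 0 of the 10 in the last. With replicates 1 to 4 and 5 to 8 as a term they were 174, 1735 and 939, with 12 pathway genes for rofecoxib against control. Replicates 1 to 4 alone gave 9, 42 and 2073 over all genes, 1, 1 and 19 among pathway genes and 0, 0 and 4 among the 10; replicates 5 to 8 alone gave 313, 401 and 0, 1, 2 and 0, and 1, 2 and 0. The endothelial covariate left 59, 12 and 1, and the adipocyte covariates 181, 100 and 0, with 0 pathway genes in any comparison for both, and with 0 and 1 of the 10 genes called for rofecoxib against control and 0 for celecoxib against rofecoxib. RLE scaling, library size alone and a minimum mean of 1 CPM kept every count over pathway genes and the 10 genes within 1.5 times. Same-numbered libraries of different diets had a median correlation of 0.11 (-0.30 to 0.56, 12 of 24 pairs over 0.1). Differently numbered libraries had a median of -0.01 (-0.51 to 0.61, 53 of 168 pairs over 0.1). Whether the numbers mark shared variation was not tested. With the replicate block the counts were 27, 1187 and 0 over all genes. Among pathway genes they were 0, 7 and 0, and among the 10 they were 0, 5 and 0. Leaving out each library in turn gave 0 to 34, 358 to 1945 and 0 to 1997 genes. Among pathway genes it gave 1 to 12 for rofecoxib against control (12 without rofecoxib replicate 8, 11 without control replicate 4, 3 without control replicate 6, 2 without rofecoxib replicate 7, and 1 without control replicate 2 or 7) and 0 to 11 for celecoxib against rofecoxib (11 without rofecoxib replicate 8, and 8 without celecoxib replicate 7 or control replicate 4). Among the 10 it gave 3 to 5 and 0 to 4 (4 without rofecoxib replicate 8, and 3 without celecoxib replicate 7 or control replicate 4). The within-diet pairs called by Pearson's r, 7 in all (10 by Spearman's rho, 6 of them shared), were 4 without the 2 farthest libraries, 0 among replicates 1 to 4 and 1 among replicates 5 to 8. The causes of these shifts were not tested. No called value of a single gene reversed its direction under these alternatives. Depth limits Apln most, at 3 to 20 reads in control libraries.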

Other observations

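With celecoxib, several of the 10 genes had opposite signs of the log2 fold change against control in replicates 1 to 4 and in replicates 5 to 8, fitted apart. It was -0.54 (SE 0.25) and 1.13 (SE 0.46) for Aplnr, -0.53 (SE 0.29) and 0.77 (SE 0.42) for Kdr, -0.63 (SE 0.34) and 1.20 (SE 0.51) for Esm1, and -0.26 (SE 0.21) and 0.41 (SE 0.28) for Vegfa. Apln was above 0 in both, at 0.39 (SE 0.81) and 1.68 (SE 0.37). With rofecoxib the values of Apln (1.81 and 2.78), Aplnr (1.20 and 2.17), Kdr (1.06 and 1.12), Vegfa (0.61 and 0.77) and Tek (0.59 and 0.38) were above 0 in both. The labels do not say that replicate numbers mark a batch, the split was chosen with the numbers alone, and the difference between the parts was not tested.

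Outside the rule for named genes, and chosen after their values were seen, the genes most like Vegfa, Tek and Pgf in within-diet pattern over 24 libraries were Hp, which encodes haptoglobin (r = 0.95 with Vegfa), Mmrn2, an endothelial matrix protein (r = 0.86 with Tek), and Des, which encodes the muscle filament protein desmin (r = 0.85 with Pgf).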
